A study of Mus musculus with 24 samples.

Results

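The intratibial tumors of mice given interleukin-27 (IL-27) gene therapy and no drug were compared between the end of the study (EOS) and day 14 after implantation. The comparison takes the 5 tumors that carry the labels of the IL-27 vector and the vehicle, 2 collected at EOS (from mice M10 and M12) and 3 collected at day 14 (from mice M4, M6 and M8), of 24 tumors in the series, 20 of which grew in the tibia. All 5 came from male C57/BL6 mice aged 8 to 10 weeks whose tibiae received 100000 TC2Ras-Luc cells, a mouse prostate adenocarcinoma line (TRAMP-C2) that carries an activated H-Ras and firefly luciferase. Both groups received a plasmid for IL-27pepL, which is IL-27 with a short targeting peptide, and the polyvinylpyrrolidone (PVP, 15%) in which cabozantinib (cabo, a tyrosine kinase inhibitor) was suspended for other mice. The control tumors used below received the vector without IL-27 and the same PVP, the cabo tumors that vector and cabozantinib, and the IL-27 with cabo tumors the IL-27 vector and cabozantinib. Each of these groups holds 3 tumors at day 14 and 2 at EOS, grown from the same cells in mice of the same strain.

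Several features limit what the groups can model. The plasmid was placed in muscle with ultrasound and microbubbles (10 µg per muscle), namely the tibialis anterior that lies along the tibia, and not in the tumor itself. EOS was the day on which a mouse reached its ethical endpoint, which is not given for M10 or M12, and the daily gavage of the mice covered the weeks up to day 14. Time, tumor size and the end of gavage therefore cannot be told apart. The mouse numbers come from the library names, and p-values measure only the spread between these samples. In whole tumors, fewer cells of a type and less RNA per cell cannot be told apart.

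IL-27 is a cytokine made of EBI3 and p28 (encoded by Il27). It signals through a receptor of IL27RA and gp130 (encoded by Il6st) and through JAK kinases to STAT factors, and it is known for effects on T cells, on interferon-type genes and on the formation of osteoclasts. Osteoclasts are the large cells that resorb bone; they form when precursors receive RANKL (Tnfsf11) at the receptor RANK (Tnfrsf11a), switch on Nfatc1, fuse, and secrete acid and proteases onto the bone surface.

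Each of the 5 libraries held between 67682612 and 72182727 counts on genes, and between 22391 and 23742 genes had a count. Over 13969 genes, the correlation of log2 CPM (the count of a gene scaled to the size of its library) was 0.986 between both EOS tumors and 0.952 to 0.974 among the day 14 tumors. Tumor M4 of day 14 resembled the EOS tumors (0.984 and 0.985) more than it did the other day 14 tumors, and M8 lay farthest from the rest. M8 held 2450 CPM on a list of mature skeletal muscle genes, against 43.4 to 88.7 CPM in the other day 14 tumors and 15.3 and 25.5 CPM at EOS. M4 had a T cell score (mean log2 CPM over the list) of 2.92, against 0.44 and 0.96 in M6 and M8. The results on muscle, T cells and interferon-type genes are therefore given with and without these tumors. Of the tumor cell markers, the epithelial keratin gene Krt8 (14.3 to 47.1 CPM) and the adhesion gene Epcam (1.30 to 3.94 CPM) were detected in all 5 tumors. Bglap and Ibsp, which mark mature osteoblasts, stayed under 0.1 CPM in all 5.

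No gene passed an adjusted p of 0.05 in the comparison of EOS with day 14. Of 19078 genes tested with edgeR, 0% were called, and 963 (5.05%) had an unadjusted p under 0.05, which is close to the share that such a limit gives by itself. Of these, 375 (1.97%) were higher at EOS and 588 (3.08%) were lower. DESeq2 called 111 genes at an adjusted p under 0.05, 30 of them higher and 81 lower, and 103 of the 111 also had an unadjusted edgeR p under 0.05. Under the rule of the series' design text for a differentially expressed gene (DEG), an unadjusted p under 0.05 and a log2 fold change beyond 1.5 in either direction, 67 genes were higher at EOS (0.351%) and 255 lower (1.34%). With an absolute fold change of at least 1.5, the limit in the published methods, 279 were higher and 500 lower. The EOS and day 14 tumors did not overlap for 2423 genes that were higher (12.7%) and 2210 that were lower (11.6%). Genes with long transcripts tended to higher values at EOS. The median log2 fold change was -0.18 over the 4768 genes with transcripts of up to 1683 bases and 0.21 over the 4763 genes with transcripts of at least 4435 bases, against -0.01 over all genes. Of the shorter genes 0.57% were higher and 4.38% lower at an unadjusted p under 0.05 in edgeR, and of the longer genes 4.70% and 1.43%. The shares of all genes set beside the lists below do not allow for length. Median lengths were 1123.5 bases in the neutrophil list, 1459.5 in the cytotoxic, 1576 in the MHC class II and 1739.5 in the NK cell list, against 2928 over all genes tested. The genes below are thus described by their values, and "higher" and "lower" denote differences that did not pass the adjusted threshold in edgeR, whose calls are used throughout unless DESeq2 is named. Of the list genes described below, Acp5, Ctsk, Atp6v0d2, Oscar, Mmp9, Socs1 and Ngp were among the DESeq2 calls.

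Osteoclast genes were higher at EOS. Of 15 genes of the osteoclast list tested, 7 were higher at an unadjusted p under 0.05 (beside 1.97% of all genes) and none was lower, and 9 (beside 12.7%) did not overlap between the groups. Their median log2 fold change was 0.91. The 7 were Acp5, Ctsk, Atp6v0d2, Oscar, Dcstamp, Ocstamp and Nfatc1. Without tumor M12 the count was 4 and the median 0.41, and over the alternatives tried the count of higher members lay between 4 and 8, with none lower. The list was likewise higher in the control tumors, where 7 were higher (beside 5.9% of all genes tested there) and none lower, at a median of 0.64, and no member had a change that differed from control at an unadjusted p under 0.05.

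The promoters of 3 of these genes are shown because Nfatc1, the master transcription factor of the osteoclast, binds a TGGAAA core. The sequences are those of RefSeq (GRCm38.p6), from 250 bases before to 50 bases after the start, 5′ to 3′ on the strand of the gene, and capitals mark TGGAAA or its reverse complement TTTCCA. They lie at chr3:95498960-95499259 on the plus strand for Ctsk, at chr9:22130549-22130848 on the minus strand for Acp5 (1 of 3 starts listed), and at chr7:3616108-3616407 on the minus strand for Oscar.
Ctsk: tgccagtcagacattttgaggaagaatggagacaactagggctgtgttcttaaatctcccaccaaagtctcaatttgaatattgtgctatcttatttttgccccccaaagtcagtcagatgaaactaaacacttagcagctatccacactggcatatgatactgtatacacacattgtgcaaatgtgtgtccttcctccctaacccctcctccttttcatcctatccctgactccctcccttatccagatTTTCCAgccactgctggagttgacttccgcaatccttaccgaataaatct
Acp5: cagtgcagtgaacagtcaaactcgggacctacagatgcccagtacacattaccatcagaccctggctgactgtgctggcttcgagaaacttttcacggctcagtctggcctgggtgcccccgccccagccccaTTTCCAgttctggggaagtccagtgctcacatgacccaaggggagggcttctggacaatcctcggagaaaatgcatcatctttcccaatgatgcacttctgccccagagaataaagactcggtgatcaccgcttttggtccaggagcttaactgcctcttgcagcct
Oscar: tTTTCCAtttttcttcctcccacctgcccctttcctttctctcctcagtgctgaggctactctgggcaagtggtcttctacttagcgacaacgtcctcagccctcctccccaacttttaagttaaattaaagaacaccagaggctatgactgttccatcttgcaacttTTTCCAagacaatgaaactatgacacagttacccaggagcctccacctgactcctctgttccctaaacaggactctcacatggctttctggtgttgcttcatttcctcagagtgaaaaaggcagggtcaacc
The Ctsk and Acp5 promoters held 1 match each and that of Oscar held 2, while 21.4% of all 32851 promoters held at least 1. Neither the AP-1 letters TGANTCA nor the E-box letters CACGTG occurred in the 3 windows on either strand (7.81% and 7.15% of all promoters). A match is a description of the letters and not of a bound site.

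The enzymes with which osteoclasts dissolve bone were higher in both EOS tumors. Acp5, tartrate-resistant acid phosphatase (chromosome 9, 22126727 to 22135711, GRCm38), measured 45.6, 51.6 and 84.1 CPM in M4, M6 and M8 at day 14 and 161.3 and 181.5 CPM in M10 and M12 at EOS. Both EOS tumors thus lay above every day 14 tumor, with a log2 fold change of 1.51 (SE 0.27, unadjusted p = 8.33e-04 in edgeR). Ctsk, cathepsin K, which degrades bone collagen (chromosome 3, 95499256 to 95509362), measured 78.6, 87.2 and 117.8 CPM at day 14 and 195.8 and 173.8 CPM at EOS (log2 fold change 0.97, SE 0.21, unadjusted p = 0.0022). Mmp9, a gelatinase that osteoclasts secrete (chromosome 2, 164940780 to 164955850), measured 125.0, 59.1 and 103.1 CPM at day 14 and 395.3 and 301.7 CPM at EOS. Its log2 fold change was 1.87 (SE 0.31, unadjusted p = 5.23e-04), and in the control tumors it was 1.97.

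The pump subunit gene Atp6v0d2 and both fusion genes followed the same order. Atp6v0d2, a proton pump subunit that also serves cell fusion (chromosome 4, 19876841 to 19922605), measured 11.4, 11.2 and 11.0 CPM at day 14 and 26.7 and 27.3 CPM at EOS. The day 14 tumors were nearly equal and the EOS tumors lay far above them, with a log2 fold change of 1.27 (SE 0.18, unadjusted p = 1.91e-04). Dcstamp, a fusion receptor, measured 1.33, 0.898 and 1.14 CPM at day 14 and 2.54 and 2.37 CPM at EOS (1.13, unadjusted p = 0.017). Its partner Ocstamp measured 1.85, 0.588 and 1.77 CPM and then 3.94 and 3.80 CPM (1.47, unadjusted p = 0.023). In neither fusion gene did the groups overlap.

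Among the receptors and regulators the differences were less even. Oscar, a co-stimulatory receptor of osteoclast precursors (chromosome 7, 3609813 to 3616157), measured 0.903, 0.464 and 1.09 CPM at day 14 and 4.02 and 2.44 CPM at EOS, with a log2 fold change of 1.98 (SE 0.48, unadjusted p = 0.0041). Nfatc1 measured 48.4, 41.1 and 34.2 CPM at day 14 and 54.6 and 63.1 CPM at EOS (0.52, unadjusted p = 0.036). The receptor gene Tnfrsf11a overlapped between the groups, with 2.80, 4.32 and 5.99 CPM at day 14 and 5.30 and 11.0 CPM at EOS (0.91, unadjusted p = 0.074). Its ligand Tnfsf11 measured 4.40, 5.25 and 3.46 CPM and then 4.55 and 3.77 CPM, so that EOS lay within the day 14 range. The decoy receptor Tnfrsf11b, the integrin Itgb3, the chloride channel Clcn7, the pump subunit Tcirg1, the carbonic anhydrase Car2 and the calcitonin receptor Calcr did not reach an unadjusted p of 0.05.

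**Figure D1:**
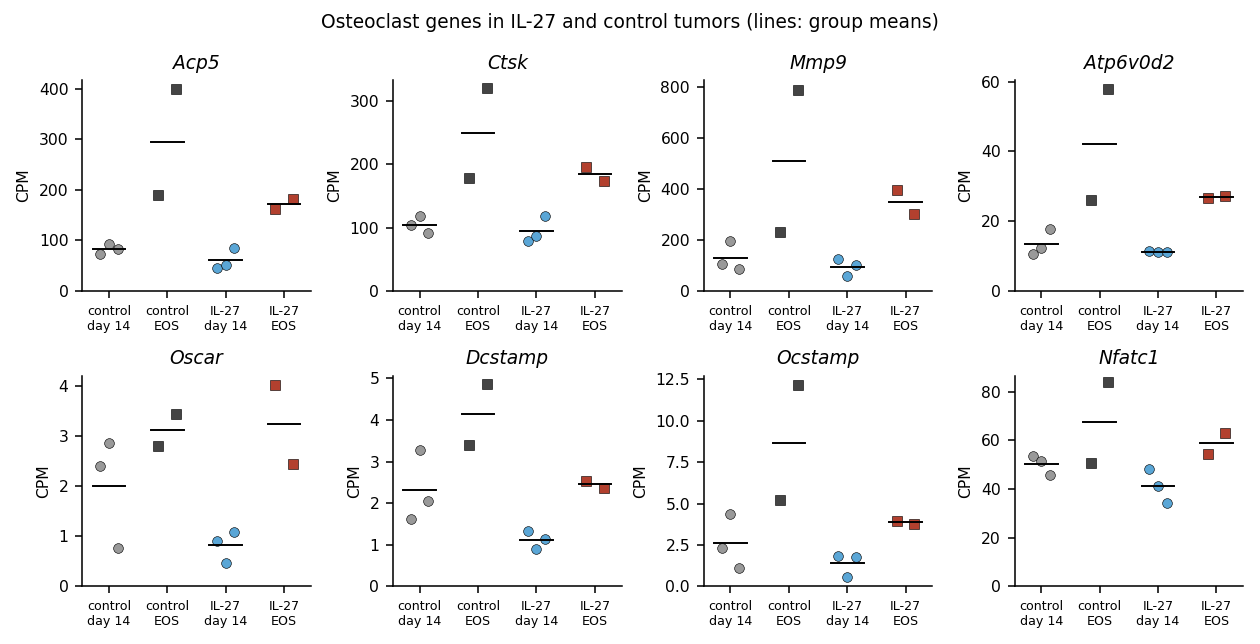
CPM (vertical axis, from 0) of 8 osteoclast genes in control and IL-27 tumors at day 14 (circles) and EOS (squares), each point a tumor and each line a group mean. In IL-27 tumors the 2 EOS points lie above the 3 day 14 points in every panel, and for Acp5 they lie at 161.3 and 181.5 CPM.

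The other genes named here were taken by rank of p, 12 higher and 12 lower, from the protein-coding genes whose groups did not overlap. None passed the adjusted threshold in edgeR, and all of them passed it in DESeq2. The smallest p belonged to Mfsd4a, a transporter of the major facilitator family (chromosome 1, 132022806 to 132068062). It measured 1.96, 1.47 and 1.45 CPM at day 14 and 22.2 and 17.9 CPM at EOS, a log2 fold change of 3.63 (SE 0.27, edgeR adjusted p = 0.0511). In the control tumors it measured 0.997, 8.92 and 1.87 CPM at day 14 and 1.07 and 0.959 CPM at EOS, so that the control EOS tumors did not share the high level. The adjusted p in edgeR was 0.0321 after a correction for GC content and transcript length and 0.0306 with the counts divided by 4, and it was 0.976 with all 20 intratibial tumors in the fit. 

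Several other genes of this set have been described in osteoclasts. Tm4sf19, a membrane protein of fusing osteoclasts, measured 0.430, 0.526 and 0.345 CPM at day 14 and 2.12 and 2.41 CPM at EOS (log2 fold change 2.39, SE 0.41). Slc9b2, a sodium-proton exchanger, measured 3.83, 2.85 and 4.21 CPM and then 9.77 and 13.5 CPM (1.69, SE 0.29). Slc37a2, a sugar phosphate transporter, measured 18.5, 15.3 and 21.0 CPM and then 35.9 and 38.6 CPM (1.03, SE 0.20). These genes were higher in control tumors at EOS as well, by 1.38, 2.04 and 0.98 on the log2 scale.

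The rest of the higher genes serve other functions. Slc7a11, the cystine-glutamate antiporter, measured 31.9, 21.1 and 29.0 CPM at day 14 and 67.1 and 64.8 CPM at EOS (1.28, SE 0.21). Ank2, an ankyrin, measured 14.2, 14.0 and 12.6 CPM and then 34.9 and 27.8 CPM (1.21, SE 0.19). Both genes were higher by about as much in the control tumors, where their log2 fold changes were 0.98 and 1.03. Nos1, the neuronal nitric oxide synthase, measured 3.46, 2.60 and 2.00 CPM at day 14 and 7.58 and 11.0 CPM at EOS (1.80, SE 0.34), against 0.36 in control. Avil, the actin-binding protein advillin, measured 4.999, 3.96 and 5.49 CPM and then 10.3 and 14.5 CPM (1.37, SE 0.28), against 1.01 in control. Cd209b, a C-type lectin of marginal zone macrophages, had no count in the day 14 tumors and 40 and 39 counts at EOS. Against a floor of 3 counts over the day 14 group, Cd209b was at least 38.6-fold higher at EOS.

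The genes that were lower at EOS included both histone variants H2afx and H2afj. H2afx, a histone that is phosphorylated at DNA breaks (chromosome 9, 44334694 to 44336077), measured 76.2, 97.2 and 97.3 CPM at day 14 and 35.4 and 38.3 CPM at EOS. All day 14 tumors lay above both EOS tumors, with a log2 fold change of -1.29 (SE 0.19, unadjusted p = 2.26e-04 in edgeR), and in control tumors it was -0.90. H2afj measured 15.3, 17.2 and 18.99 CPM at day 14 and 7.59 and 7.83 CPM at EOS (-1.15, SE 0.22). The transcription cofactor gene Scand1 measured 7.01, 3.93 and 1.94 CPM at day 14 and 0.184 and 0.243 CPM at EOS (-4.31, SE 0.68). Zfp771, a zinc finger gene, measured 10.1, 6.21 and 9.62 CPM and then 2.07 and 2.35 CPM (-1.96, SE 0.33). In control tumors the log2 fold changes of H2afj, Scand1 and Zfp771 were -0.54, -2.65 and -0.79.

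Genes of mitochondrial and secretory proteins were also among the 12. Fdx1, a mitochondrial ferredoxin, measured 16.7, 21.1 and 16.6 CPM at day 14 and 5.67 and 7.85 CPM at EOS (-1.42, SE 0.26), while in control tumors the log2 fold change was -0.12. Cox11, an assembly factor of cytochrome c oxidase, measured 8.21, 8.23 and 7.88 CPM and then 2.68 and 3.35 CPM (-1.42, SE 0.27). Sys1, a Golgi trafficking protein, measured 14.4, 16.05 and 16.4 CPM and then 7.15 and 6.72 CPM (-1.17, SE 0.22). In these 3 genes the day 14 tumors lay close together and the groups were well apart. Srgn, the granule proteoglycan serglycin, measured 58.9, 53.4 and 65.4 CPM at day 14 and 28.1 and 33.3 CPM at EOS (-0.94, SE 0.18). Sarnp, an RNA-binding protein of mRNA export, measured 23.2, 37.2 and 37.6 CPM and then 12.1 and 10.4 CPM (-1.53, SE 0.27). The annexin gene Anxa10 had a log2 fold change of -1.60 (SE 0.30). Fbp2, the muscle form of fructose bisphosphatase, had 32, 28 and 43 counts at day 14 and none at EOS, which makes it at least 23.4-fold lower against a floor of 3 counts over the EOS group. In control tumors the log2 fold changes were -0.46 for Cox11, -0.76 for Sys1 and -0.74 for Srgn. There they were -1.10 for Sarnp, -1.85 for Anxa10 and 1.13 for Fbp2.

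**Figure D2:**
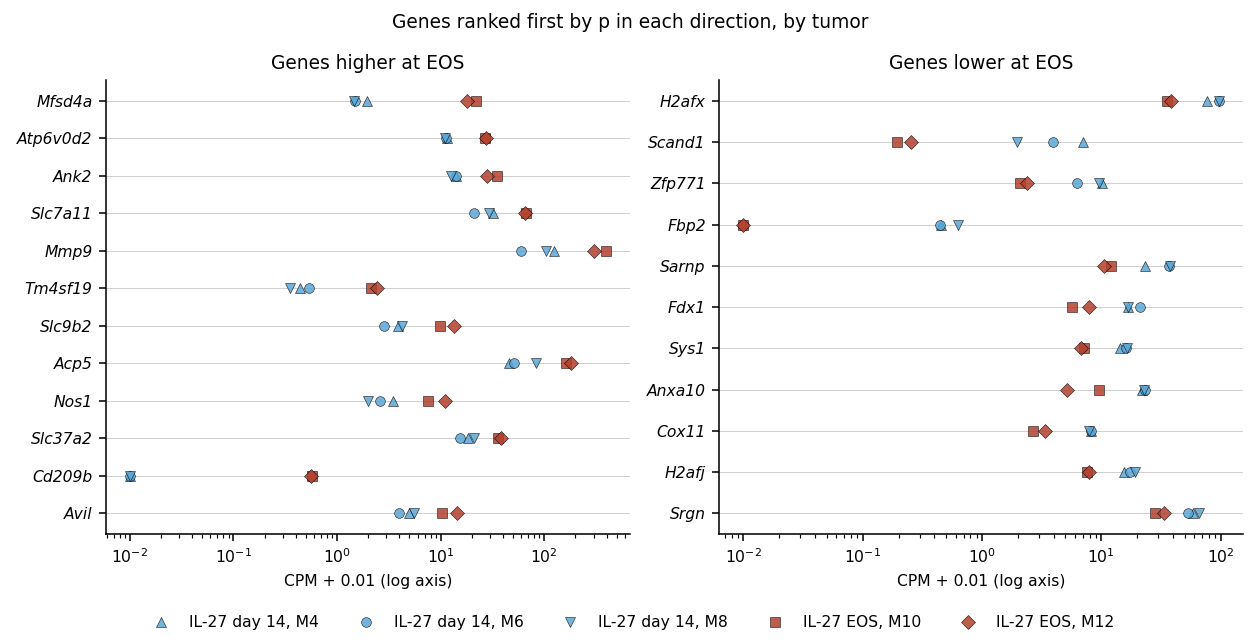
CPM plus 0.01 (horizontal log axis) of the genes that ranked first by p, 12 higher and 11 of the 12 lower, each symbol a tumor (blue day 14, red EOS). The groups are apart in every row because genes with overlapping groups were left out, and Mfsd4a lies at 22.2 and 17.9 CPM at EOS against 1.45 to 1.96 CPM at day 14.

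The genes of the IL-27 pathway itself were, on their median, lower at EOS. Of 21 listed, 18 were tested, 3 were lower (beside 3.08% of all genes), none was higher and the median log2 fold change was -0.68. In control tumors 20 were tested, 7 were lower (beside 7.22% of all genes tested there) and the median was -0.88. Without M4 the median was -0.25, with 2 of 17 members higher and 2 lower, where 1750 and 1508 of all 18590 genes were higher and lower, and without M10 1 was lower. The cytokine gene Il27 had 4 counts in M4, 6 in M12 and none in the other 3 tumors, and was not tested. Ebi3 measured 0.486, 0.696 and 2.80 CPM at day 14 and 0.382 and 1.33 CPM at EOS, with the groups overlapping. The receptor gene Il27ra measured 7.98, 3.62 and 3.67 CPM at day 14 and 3.09 and 3.00 CPM at EOS. Both EOS values lay below all day 14 values, of which M4 was much the highest (-0.74, SE 0.43, unadjusted p = 0.13 in edgeR). Il6st measured 181.8, 145.4 and 112.3 CPM and then 199.97 and 173.9 CPM, with overlap. The kinase genes Jak1, Jak2 and Tyk2 and the factor gene Stat3 had log2 fold changes between -0.08 and 0.07.

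The 3 lower members are a pair of feedback inhibitors and a T cell factor. Socs1, an inhibitor of JAK kinases (chromosome 16, 10782240 to 10785536), measured 3.60, 3.53 and 4.13 CPM at day 14 and 1.09 and 1.57 CPM at EOS. The groups were apart, with a log2 fold change of -1.49 (SE 0.35, unadjusted p = 0.0035 in edgeR), against -0.71 in control tumors. Socs3, the inhibitor that acts at gp130, measured 51.8, 98.7 and 55.1 CPM and then 32.8 and 44.6 CPM (-0.82, SE 0.33, unadjusted p = 0.040). Tbx21, which encodes T-bet of type 1 helper cells, measured 0.791, 0.356 and 0.417 CPM and then 0.170 and 0.086 CPM (-2.01, SE 0.77, unadjusted p = 0.034). Its target Ifng measured 1.28, 0.139 and 0.316 CPM and then 0.085 and 0.114 CPM (-2.51, unadjusted p = 0.055), where M4 alone exceeded 1 CPM. Stat4, Il10, Il21, Il12b, Il12rb1, Prdm1 and Maf had log2 fold changes from -2.27 to -0.27, none at a p under 0.05, and Il12a and Il12rb2 were not tested.

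Interferon-response and antigen presentation genes were lower at EOS on their medians, with values that depended on tumor M8. Of 26 type I interferon response genes, 2 were lower at an unadjusted p under 0.05 (7.69%, beside 3.08% of all genes) and none was higher (median log2 fold change -0.64). Without M8 the count was 0 and the median -0.05. Among 15 interferon-gamma GTPases, 4 were lower at a median of -1.17, and without M8 the count was 1 and the median -0.40. DESeq2 had 6 of the type I interferon genes and 8 of the GTPases lower at an unadjusted p under 0.05 (891 of all 28392 genes). Of 12 MHC class I genes 1 was lower (median -0.63), of 8 MHC class II genes 2 were lower (median -1.64), and of 3 tested among CXCR3 and its ligands 1 was lower (median -1.48). Without M8 the medians of these 3 lists were -0.28, -0.66 and -1.14, and 0, 1 and 1 members were lower. Without M10 no member of the 5 lists was lower, and without M12 only the 2 of MHC class II were. Without M6, 6 of the type I interferon genes, 11 of the GTPases, 3 of MHC class I and 6 of MHC class II were lower (618 of all 18779 genes). The GC and length correction left 2, 3, 0, 2 and 1 members of the 5 lists lower. In control tumors the same lists had 19, 15, 10, 5 and 2 lower members in that order, beside 7.22% of all genes tested there. At an unadjusted p under 0.05, 2 type I interferon genes (Ddx58 and Eif2ak2) and 1 MHC class I gene (Erap1) had a higher change than in control, beside 1.41% of all genes, and none did at an adjusted p in edgeR. The GTPase and MHC genes have near-identical copies whose reads the counting may have divided, so that single members are uncertain.

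The values by tumor show the part of M8. Irf7, a master factor of the type I interferon response, measured 10.3, 6.45 and 32.9 CPM at day 14 and 4.02 and 5.59 CPM at EOS (-1.77, SE 0.69, unadjusted p = 0.036 in edgeR). Gbp2, an interferon-induced GTPase, measured 8.96, 7.61 and 38.3 CPM and then 4.72 and 6.04 CPM (-1.76, SE 0.73, unadjusted p = 0.046). Cxcl9, a chemokine that attracts activated T cells through CXCR3, measured 2.32, 1.94 and 24.6 CPM and then 0.694 and 1.26 CPM (-3.29, SE 1.23, unadjusted p = 0.032). In each of these genes M8 was the highest of the 5 tumors and the EOS tumors lay below the other day 14 tumors by a smaller margin. H2-Aa, an MHC class II chain of antigen-presenting cells, measured 10.1, 8.65 and 53.1 CPM and then 3.70 and 6.36 CPM (-2.24, SE 0.85, unadjusted p = 0.033). B2m, the light chain of MHC class I, measured 288, 383 and 525 CPM and then 224 and 262 CPM (-0.71, SE 0.27, unadjusted p = 0.033). M8 was also the tumor with the most muscle RNA. With the muscle score as a covariate, the medians were 0.30 for the type I interferon response, 0.0058 for the GTPases, -0.045 for both MHC classes and -0.14 for CXCR3 and its ligands. In that edgeR fit the only member lower at an unadjusted p under 0.05 was 1 of the last list, and 1 type I interferon gene was higher. The covariate is set largely by M8, in a fit of only 5 tumors.

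The promoters of Gbp2 and Socs1 are shown because they hold the core of the interferon-stimulated response element (ISRE), which is GAAA, 2 bases of any kind and GAAA again. They lie at chr3:142620413-142620712 on the plus strand for Gbp2 and at chr16:10785487-10785786 on the minus strand for Socs1 (RefSeq, GRCm38.p6, 5′ to 3′ on the strand of the gene). Capitals mark this core on either strand.
Gbp2: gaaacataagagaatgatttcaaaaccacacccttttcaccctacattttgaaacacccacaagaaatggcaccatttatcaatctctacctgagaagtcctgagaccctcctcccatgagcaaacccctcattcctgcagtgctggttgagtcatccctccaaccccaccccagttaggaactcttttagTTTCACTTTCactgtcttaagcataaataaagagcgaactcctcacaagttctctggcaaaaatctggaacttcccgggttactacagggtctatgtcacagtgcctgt
Socs1: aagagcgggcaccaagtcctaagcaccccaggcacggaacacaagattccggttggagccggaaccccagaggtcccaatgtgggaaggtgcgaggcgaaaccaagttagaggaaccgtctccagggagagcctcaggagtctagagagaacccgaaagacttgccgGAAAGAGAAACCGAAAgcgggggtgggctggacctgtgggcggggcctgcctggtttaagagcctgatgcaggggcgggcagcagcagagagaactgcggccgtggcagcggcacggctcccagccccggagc
The Gbp2 promoter held 1 match and that of Socs1 held 2 that overlap, against at least 1 match in 3.44% of all promoters. The windows of Cxcl9 and Irf7 held none, and the letters TTCNNNGAA of a STAT-binding (GAS) site occurred in none of the 4 windows (8.3% of all promoters).

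T cell genes had low values in every EOS tumor and in all but 1 of the day 14 tumors. Of 17 T cell genes, 1 (Cd6) was lower at an unadjusted p under 0.05 (beside 3.08% of all genes), at a median of -1.37 on the log2 scale. Without M4 none was lower and the median was -0.28, none was lower without M10, and 10 were lower without M6 (618 of all 18779 genes) and 5 without M8 (470 of 18673). DESeq2 had 6 lower (891 of 28392 genes), and 7 were lower with all 20 tumors in the fit (662 of 21563) as well as with the muscle score as a covariate (422 of 19078). The score was 2.92, 0.44 and 0.96 in M4, M6 and M8 and 0.51 and 0.56 at EOS, against 2.98, 2.99 and 2.93 in control tumors at day 14 and 0.51 and 0.73 in control tumors at EOS. Cd3e, a chain of the T cell receptor complex, measured 9.01, 1.16 and 1.73 CPM at day 14 and 1.47 and 1.58 CPM at EOS, so that the EOS tumors lay among M6 and M8. In control tumors all 17 genes were lower (beside 7.22% of all genes tested there), but no gene's change differed from control at an unadjusted p under 0.05.

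Cytotoxic and natural killer (NK) cell genes were also lower on their medians. Of 10 cytotoxic genes 2 were lower (beside 3.08% of all genes, median -1.25), which were Gzmb, the protease granzyme B (12.5, 4.10 and 11.7 CPM, then 3.64 and 4.14 CPM), and the factor gene Eomes (3.92, 3.28 and 3.12 CPM, then 1.90 and 1.01 CPM). Gzmb overlapped between the groups and Eomes did not. Leaving out M6 gave 6 lower cytotoxic genes (618 of all 18779 genes), and leaving out M4 or M8 gave 1. DESeq2 gave 5 (891 of 28392), and the GC and length correction gave 1. Of 10 NK cell genes 2 were lower, namely Klrk1 and Klrd1 (median -2.03), and 7 of the list had EOS values below all day 14 values, beside 11.6% of all genes. Klrk1, the activating receptor NKG2D, measured 0.680, 0.944 and 2.10 CPM and then 0.255 and 0.471 CPM (-1.76, SE 0.67, unadjusted p = 0.033 in edgeR). Without M8 none of the NK cell genes was lower and the median was -1.17. With the muscle score as a covariate none was lower either, at a median of -0.64. The GC and length correction left 1 lower. With the counts divided by 4 only 5 NK cell genes could be tested, of which 2 were lower (median -0.98). The median was -1.28 without M10 and -2.37 without M12. Of 8 regulatory T cell genes none was lower in edgeR (median -0.90). DESeq2 had 4 lower (891 of 28392 genes), the fit with all 20 tumors 2 (662 of 21563) and the fit with the muscle score 3 (422 of 19078). Of 11 immune checkpoint genes 1 was lower, the inhibitory receptor gene Lag3 (beside 3.08% of all genes, median -0.48). Without M4 neither list had a lower gene and the medians were -0.13 and -0.07. Of the regulatory T cell genes 3 were lower without M6 (618 of 18779 genes) and 2 without M8 (470 of 18673). The checkpoint median was -0.14 without M10 and -0.94 without M12.

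**Figure D3:**
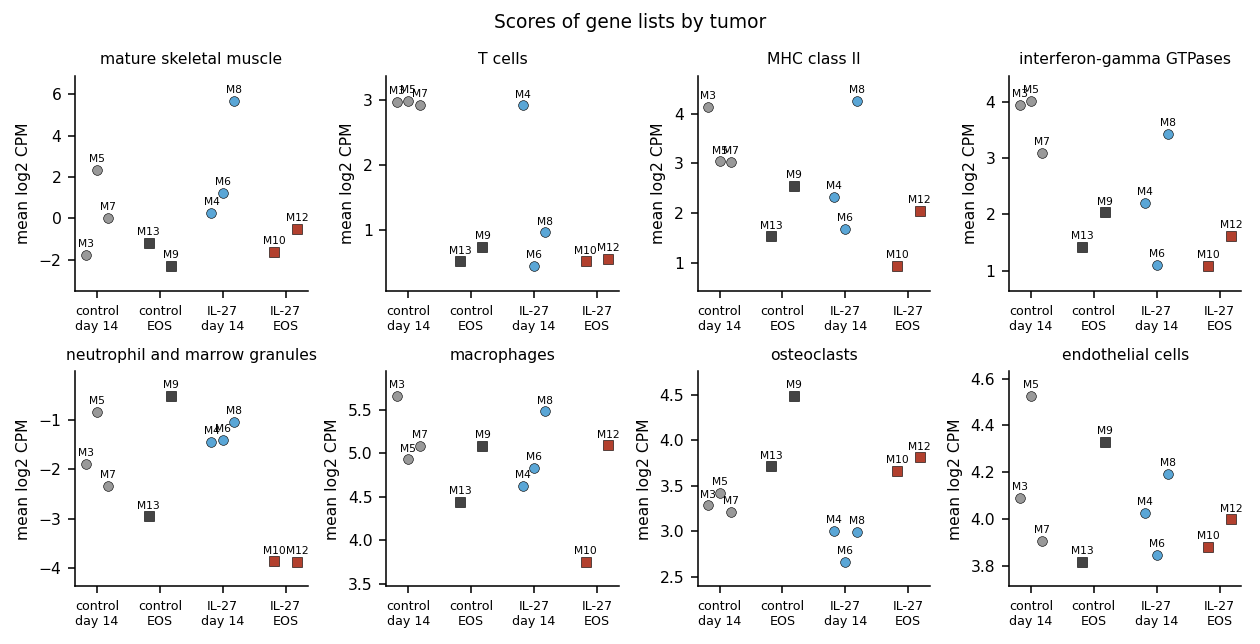
Score of 8 gene lists by tumor (mean log2 CPM over the members tested in the IL-27 tumors, vertical axis, not starting at 0). Control and IL-27 tumors are shown at day 14 (circles) and EOS (squares), with the mouse number above each point. Among the IL-27 tumors M8 stands alone in muscle at 5.67 and M4 in T cells at 2.92, level with the control tumors of day 14, and both IL-27 EOS tumors lie below -3.8 in neutrophil and marrow granule genes.

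Neutrophil and marrow granule genes were low in all tumors and lowest at EOS. Of 17 listed, 12 passed the filter on low counts, 6 of them were lower (beside 3.08% of all genes) and none was higher (median log2 fold change -2.21), and 9 did not overlap (beside 11.6%). Those counts are over genes that the day 14 tumors alone could bring past the filter, and without M4 3 were lower. With no filter 6 of 15 were lower (641 of 28418 genes), and in DESeq2 8 of 15 (891 of 28392). The score covers only the 12 genes that passed the filter in the IL-27 tumors, so that it shares this limit. It was -1.45, -1.41 and -1.03 at day 14 and -3.86 and -3.87 at EOS. Control tumors measured -1.89, -0.84 and -2.33 and then -2.96 and -0.52 over the same genes. S100a8, a subunit of the granule protein calprotectin, had 15, 5 and 34 counts at day 14 and none at EOS (at least 12.1-fold lower). The protease gene Prtn3 had 12, 17 and 6 counts and then none (at least 8.07-fold lower). Ngp, a granule protein of young neutrophils, had 145, 50 and 31 counts and then 8 and 0 (unadjusted p = 0.014 in edgeR). Of 14 members tested for the difference from control, 4 had a lower change than in control at an unadjusted p under 0.05 (1.09% of all genes) and none at an adjusted p.

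Macrophage genes overlapped because the EOS tumors were unlike each other. None of 16 was higher or lower in edgeR (median -0.47), 1 was lower in DESeq2 and 1 with all 20 tumors in the fit, and the score was 3.75 in M10 and 5.09 in M12, of which the first lay below and the second within the range of the day 14 tumors (4.62 to 5.48). Apoe, a lipid carrier of macrophages, measured 70.4 CPM in M10 and 397.1 CPM in M12, against 185, 428 and 703 CPM at day 14. The complement gene C1qa measured 21.3 and 91.3 CPM at EOS. Without M12 the median of the macrophage genes was -1.27, whereas without M10 it was -0.04. Of 16 inflammatory cytokine genes 2 were lower (beside 3.08%, median -0.91), which were Il1b (2.43, 3.14 and 8.70 CPM, then 0.453 and 1.73 CPM, unadjusted p = 0.030) and Ccl7 (10.2, 6.90 and 18.96 CPM, then 4.15 and 5.64 CPM, unadjusted p = 0.024). Without M6 6 were lower (618 of all 18779 genes), and DESeq2 had 5 lower (891 of 28392). The median was -0.61 without M10 and -1.13 without M12. In control tumors the median was 0.30 with 1 higher and 1 lower, and 2 of the 16 had a lower change than in control at an unadjusted p under 0.05 (beside 1.09%).

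B and plasma cell genes had a median near 0 (0.12 over 11 genes), and 1 was higher (beside 1.97% of all genes). None was higher with all 20 tumors in the fit or with the muscle score, and with the latter 1 was lower. Ms4a1, which encodes the B cell antigen CD20, had 12, 4 and 4 counts at day 14 and 42 and 53 counts at EOS, with a log2 fold change of 2.80 (SE 0.75, unadjusted p = 0.0072 in edgeR). In control tumors the log2 fold change was -1.73. Without M4 3 members of the list were higher, where 1750 of all 18590 genes were, and without M12 the median was -0.65. Of 12 genes tested for the difference from control, 4 had a higher change than in control at an unadjusted p under 0.05 (1.41% of all genes) and none at an adjusted p. No member was higher or lower in the main edgeR fit among 8 dendritic cell genes (median -0.42), 6 mast cell genes (median -0.20) or 7 erythroid genes (median 0.04). With the muscle score 1 dendritic cell gene and 1 mast cell gene were higher.

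Skeletal muscle genes had the largest median difference of the 34 lists, and its size rested on M8. Of 23 mature muscle genes tested, 20 were lower at EOS (beside 3.08% of all genes) and none was higher (median log2 fold change -5.72), while DESeq2 had 7 of 24 lower. Acta1, skeletal actin, measured 7.08, 17.8 and 449.8 CPM at day 14 and 2.15 and 3.81 CPM at EOS. Ckm, muscle creatine kinase, measured 0.555, 4.64 and 147.5 CPM and then 0.283 and 0.656 CPM. M6 and M8 lay above the EOS tumors in both genes, while M4 lay below M12 for Ckm. Without M8, 14 were lower and the median was -1.80, without M10 none was lower, and without M12 3 were lower. Of 12 myogenic regulators, 8 passed the filter on low counts, some only through the counts of M8, and the 5 that were lower (median -4.63) therefore give no count for the list. Without a filter 4 of the 12 were lower, and without M8 1 of 4 tested. The regulator Myf6 had 0, 15 and 1048 counts at day 14 and none at EOS (at least 239-fold lower), and the embryonic myosin Myh3 had 31, 12 and 554 counts and then none (at least 134-fold lower). The size of both limits rests on M8, and M4 had no Myf6 count, like the EOS tumors. Of 6 genes of tendon and synovium 2 were lower, Prg4 and Thbs4 (beside 3.08%, median -1.52), and both were highest in M8, at 4.37 and 50.2 CPM. Without M8 2 of this list were lower at a median of -0.54. With the muscle score none was lower and 1 was higher, at a median of -0.21.

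Among bone-forming and stromal cell genes, the lower members included genes of fibroblasts and of matrix enzymes. Of 8 tested genes of osteoblasts and osteocytes none was called (median 0.13). Runx2, the factor that commits cells to bone formation, measured 102, 86.9 and 52.4 CPM at day 14 and 90.8 and 70.8 CPM at EOS. Of 15 genes of fibroblasts and myofibroblasts 4 were lower (beside 3.08%, median -0.10), and without M10 none was, without M12 2 and without M6 1. Postn, the matrix protein periostin, measured 683, 858 and 958 CPM and then 316 and 623 CPM (-0.82, unadjusted p = 0.035 in edgeR). Dcn, the proteoglycan decorin, measured 766, 769 and 759 CPM and then 556 and 523 CPM (-0.50, unadjusted p = 0.016). The other lower members were Pdpn and Lrrc15. Of 12 matrix metalloproteinases and their inhibitors, Mmp9 was higher (beside 1.97% of all genes) and Mmp13 and Timp1 were lower (beside 3.08%, median -0.26). Without M4 or M8 3 were lower, at medians of -0.12 and -0.35, and without M6 2, at -0.06. The median was -0.29 without M10 and -0.26 without M12. Mmp13, a collagenase, measured 11.3, 43.6 and 16.9 CPM and then 10.8 and 6.31 CPM, with M6 highest.

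Of 11 epithelial and prostate tumor cell genes 3 were lower, Krt8, Krt19 and Epcam (beside 3.08%, median -0.66). Without M12 none was lower and the median was -0.16, without M10 4 were lower at -0.99, and 1 was lower without M6 or M8 and 2 without M4. Krt8 measured 26.0, 34.3 and 47.1 CPM at day 14 and 23.6 and 14.3 CPM at EOS (-0.91, unadjusted p = 0.026 in edgeR). Of 24 cell cycle genes 1 was higher (beside 1.97% of all genes, median -0.09), and none was with RLE size factors, no filter, all 20 tumors in the fit, the GC and length correction or the counts divided by 4. The 1 was Top2a, the topoisomerase of dividing cells, with 529, 579 and 579 CPM and then 713 and 749 CPM (0.38, unadjusted p = 0.045). The proliferation marker Mki67 measured 213, 155 and 148 CPM and then 227 and 232 CPM. Of 11 early response and heat shock genes 1 was lower, the factor gene Jun (beside 3.08%, median -0.79). Their summed level was 1067 CPM, 2350 CPM and 767 CPM in M4, M6 and M8. The median was -0.21 without M6, and 6 were lower without M8 (470 of all 18673 genes). Of 10 cartilage genes 6 were tested and 1 was higher, the collagen gene Col11a1 (beside 1.97% of all genes, median 0.57). None was higher without M6 or M8, with all 20 tumors in the fit or with the muscle score. Without M8, and also with the muscle score, 1 was lower. In DESeq2 the cartilage median was -0.21 over 9 genes. Of 8 pericyte genes 1 was lower, Des, which muscle also expresses (beside 3.08%, median 0.07). None was higher or lower in the main edgeR fit among 17 endothelial genes (median -0.13, with 1 higher in DESeq2), 9 adipocyte genes (median -0.36), 14 hypoxia and glycolysis genes (median -0.06) or 8 mitochondrial mRNAs (median -0.01). Leaving out M4 gave 2 lower adipocyte genes, 3 higher hypoxia and glycolysis genes and 2 higher mitochondrial mRNAs. There 1508 and 1750 of all 18590 genes were lower and higher. With the muscle score 2 hypoxia and glycolysis genes were lower. Over all 409 list genes tested, 11 were higher (beside 1.97% of all genes) and 65 lower (beside 3.08%) at an unadjusted p under 0.05. The 65 include the 20 mature muscle genes, and the smallest adjusted p in edgeR was 0.812.

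The other treatments were set beside these tumors, each with 2 EOS and 3 day 14 tumors in a fit of its own. edgeR called 20 genes in control tumors (0.104%), 400 in cabo tumors (2.09%) and none (0%) in tumors with IL-27 and cabo, where 742 (3.83%) had an unadjusted p under 0.05, 1.04% higher and 2.79% lower, and where DESeq2 called 334. The share at an unadjusted p under 0.05 was 13.1% in control tumors and 17.6% in cabo tumors (8.04% higher, 9.53% lower). With all 20 tumors in the fit, the calls in control, cabo and IL-27 with cabo were 0, 53 and 71. The median size of the log2 fold change was 0.28 in IL-27 tumors, 0.27 in control, 0.20 in cabo and 0.41 in IL-27 with cabo. The biological coefficient of variation was 0.370, 0.303, 0.228 and 0.550 in that order. The difference between the IL-27 change and the control change was tested for 20401 genes. None passed an adjusted p of 0.05 (0%), and 509 (2.49%) had an unadjusted p under 0.05, 1.41% with a higher and 1.09% with a lower change, while DESeq2 called 3, Gm49510, Gm36899 and Mfsd4a.

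The smallest adjusted p of this difference in edgeR was 0.143, for the predicted gene Gm49510. Among protein-coding genes with a name that is not a prediction or a clone, the first 5 by p are given on each side, each with an adjusted p of 0.99994 in edgeR. Mfsd4a led those with a higher change than in control, with a difference of 5.56 (SE 1.07) on the log2 scale. Krt76, a keratin, followed a different course, since it was lower at EOS in both, with 5.39, 4.77 and 5.28 CPM and then 3.02 and 2.43 CPM in IL-27 tumors, and 3.80, 6.38 and 5.61 CPM and then 0.936 and 0.458 CPM in control tumors. Cemip, a hyaluronan-degrading protein, measured 2.05, 0.464 and 0.719 CPM and then 2.35 and 1.47 CPM in IL-27 tumors, and 3.43, 2.72 and 3.08 CPM and then 0.633 and 0.229 CPM in control tumors. The other genes with a higher change were Sez6 and Fcmr, both under 1.1 CPM in all 10 tumors. Those with a lower change were Saa3, Ddc, Fbp2 and Serpinb1c, which had no count in the IL-27 tumors at EOS, and Adam1a. Saa3, an acute-phase protein, measured 0.444, 0.263 and 0.719 CPM in IL-27 tumors at day 14, and 0.289 and 0.587 CPM in control tumors at EOS.

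The difference from the cabo change, which was added after the values had been seen, passed the adjusted threshold in edgeR for some genes. Of 20269 genes, 17 passed in edgeR (0.0839%) and 1540 (7.6%) had an unadjusted p under 0.05, 3.42% higher and 4.18% lower. Of the 17, 16 had a lower change in IL-27 tumors than in cabo tumors. Among the 16 are genes of vessel endothelium: the receptor genes Flt4 and Ednrb, the Notch ligand gene Dll4, the junction gene Cldn5, and Emcn, Pcdh12 and Gpihbp1. Flt4, a receptor for lymphatic growth factors, measured 13.4, 12.4 and 11.9 CPM in IL-27 tumors at day 14 and 15.7 and 19.1 CPM at EOS. In cabo tumors it measured 0.804, 0.920 and 1.41 CPM and then 22.9 and 19.1 CPM, so that the cabo tumors lay below the IL-27 tumors at day 14 and above or level with them at EOS. Its difference in log2 fold change was -3.85 (SE 0.34, adjusted p = 0.0127 in edgeR). Dll4 measured 9.48, 12.7 and 11.3 CPM and then 6.87 and 10.2 CPM in IL-27 tumors, and 1.26, 1.25 and 1.81 CPM and then 18.0 and 13.4 CPM in cabo tumors.

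Enpp2, which encodes the enzyme autotaxin, was the single gene with a higher change in IL-27 tumors. It measured 79.3, 62.2 and 73.2 CPM at day 14 and 39.2 and 45.7 CPM at EOS in IL-27 tumors, and 169, 211 and 148 CPM and then 26.8 and 25.9 CPM in cabo tumors (difference 1.99, SE 0.24, adjusted p = 0.0175 in edgeR). Over the 17 endothelial genes of the list the median log2 fold change was -0.13 with none called in edgeR in IL-27 tumors, 1.63 with 16 higher at an unadjusted p under 0.05 in cabo tumors (beside 8.04%), and 1.81 with 13 higher in tumors of IL-27 and cabo (beside 1.04%). The 17 calls fell to 0 when M10 of the IL-27 tumors or either EOS tumor of cabo (M19 or M23) was left out, to 1 without cabo day 14 tumor M21, to 4 without M12 and to 8 without cabo day 14 tumor M27, and they rose to 508 without M4. With tumors of IL-27 and cabo together, the difference passed for none of 20487 genes (0%) in edgeR, 573 (2.8%) had an unadjusted p under 0.05, 1.45% higher and 1.34% lower, and DESeq2 called 64.

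**Figure D4:**
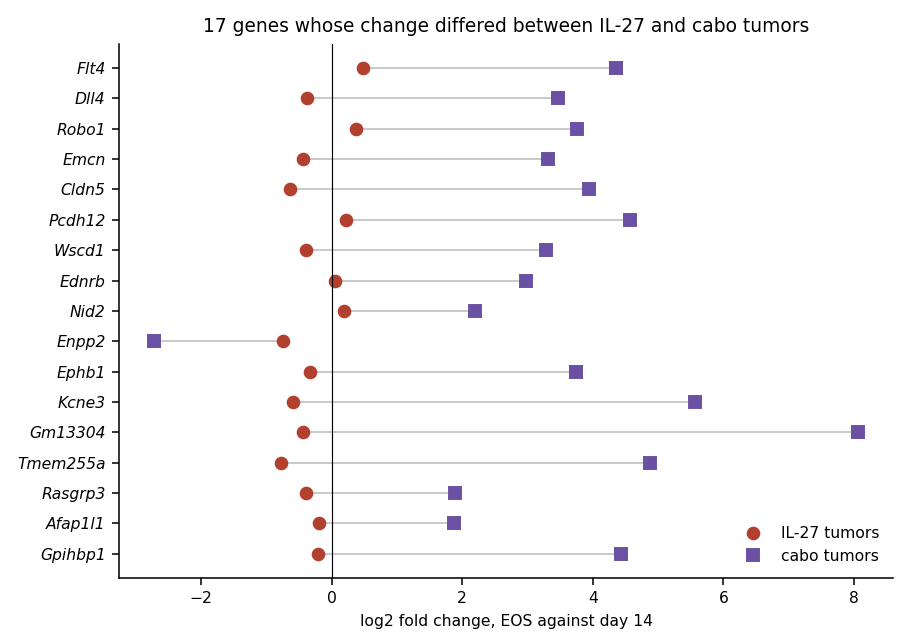
Log2 fold change of EOS against day 14 (horizontal axis) in IL-27 tumors (red circles) and cabo tumors (purple squares) for the 17 genes whose changes differed at an adjusted p under 0.05, with no error bars. IL-27 tumors lie between -0.78 and 0.48 and cabo tumors between 1.88 and 8.06 except for Enpp2 at -2.72, and the value of Gm13304 in cabo tumors depends on the fit because its day 14 tumors had no count.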

How the data were processed

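The deposited values are counts, whole numbers for each Ensembl gene that the authors had not normalized, from poly(A)-selected stranded libraries read in pairs. Per the labels, FastQC, HISAT2, StringTie and DESeq2 were used, with GRCh38, a human build, although the identifiers are those of mouse genes. The program that made the counts, the mouse build and the annotation are not given in the sources used here. Low values were multiples of 4 in 31.3% to 34.9% of cases by library, so that the counts may exceed the number of fragments behind them. Totals of 67682612 to 72182727 counts per library set the precision. Names and coordinates are those of GENCODE M21 on GRCm38, which matched 55141 of 55401 identifiers, and promoters are those of RefSeq GRCm38.p6.

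Tests used edgeR 4.0.16 under R 4.3.3 (filterByExpr, TMM scaling, quasi-likelihood F test, Benjamini-Hochberg adjustment over all genes tested, two-sided), on the groups compared alone. CPM values were scaled by TMM over all 20 intratibial tumors, and a list score is the mean of log2 CPM over the members tested in the IL-27 tumors. The muscle score used as a covariate takes the whole list. The 34 lists hold 451 entries, 1 of which has no identifier, and 409 genes of them were tested. Genes were named as the 12 of smallest p on each side with no overlap between groups, protein-coding and with a proper name, the 5 of smallest p on each side for the difference from control, the members of the IL-27 pathway list, and from each other list its first 3 members and the 4 of smallest p, from which a choice is printed (a few genes are not reported here). Members and lists were chosen with earlier results of these data known. The tests of the difference from cabo, alone or with IL-27, were added after the data had been seen. The alternatives were DESeq2 1.42.0, RLE size factors, no filter, all 20 intratibial tumors in the fit, the muscle score as a covariate, a correction for GC content and length by splines with 5 degrees of freedom, counts divided by 4, a fold change limit of 1.5, and leaving out each tumor in turn. The scripts were tested on simulated data. The files used hold no fold changes or p-values of the authors, and a floor of 3 counts stands for a group without counts, for counting error only.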

Additional observations from a re-analysis of the deposited data

Results flagged for a closer look

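A difference between the IL-27 and cabo tumors in how far they moved from day 14 to EOS, tested as an interaction in edgeR over 10 tumors, passed the adjusted threshold for 17 genes. The IL-27 change minus the cabo change was -3.85 on the log2 scale for Flt4, -3.82 for Dll4, -3.37 for Robo1 and -3.74 for Emcn. It was -4.56 for Cldn5, -4.34 for Pcdh12, -3.66 for Wscd1 and -2.92 for Ednrb. For the basement membrane gene Nid2 it was -2.00, for Ephb1 -4.06, for Kcne3 -6.15 and for Tmem255a -5.63. It was -2.27 for Rasgrp3, -2.06 for Afap1l1 and -4.62 for Gpihbp1, and it was 1.99 for Enpp2, the single gene with a less negative change in IL-27 tumors. Gm13304 had -8.48, a value that depends on the fit because it had no count in the cabo tumors at day 14, and 0.546 and 0.386 CPM in those at EOS. In IL-27 tumors themselves the 17 log2 fold changes lay between -0.78 and 0.48, none of them past an adjusted p of 0.05 in edgeR. The adjusted p-values of the differences lay between 0.0127 and 0.0436 in edgeR, and each of 3 tumors, M10 of IL-27 and both cabo tumors at EOS, left no call when it was taken out.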

How the results depend on the processing

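No paired analysis was possible because the IL-27 tumors of EOS carry the mouse numbers 10 and 12 and those of day 14 the numbers 4, 6 and 8, with none in common. With 2 against 3 tumors, single tumors moved the counts. Leaving out 1 tumor at a time gave 0 to 1 genes past the adjusted threshold (the 1, without M8, was Gm23935, an annotated miRNA gene chosen after its value was seen). It gave 118 (without M12) to 1750 (without M4) genes that were higher and 364 (without M10) to 1508 (without M4) that were lower at an unadjusted p under 0.05, 56 (without M12) to 234 (without M4) DEGs that were higher, and 169 (without M8) to 337 (without M6) that were lower. For the difference from control it gave 0 to 1 at an adjusted p and 354 to 1654 at an unadjusted p, from cabo 0 to 508 and 909 to 4489, and from IL-27 with cabo 0 to 3 and 431 to 1100.

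DESeq2 gave 111 genes in place of 0, 891 lower genes in place of 588 and 387 lower DEGs in place of 255. Its adjusted calls were 3 for the difference from control, 173 from cabo and 64 from IL-27 with cabo (899 at an unadjusted p), and 823, 1650 and 334 within control, cabo and IL-27 with cabo. With all 20 tumors in the fit these last counts were 0, 53 and 71, higher DEGs were 124, and the differences gave 685 from cabo at an unadjusted p, and from IL-27 with cabo 19 adjusted and 1221 unadjusted. The correction for GC content and length and the division by 4 gave 1 gene each, Mfsd4a. Higher DEGs were 67, and 164 without a filter, 158 with the muscle score, 37 after division by 4 and 279 at a fold limit of 1.5 (lower DEGs 500). The causes of these shifts were not tested.

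The direction of a log2 fold change turned for these genes, none of them at an adjusted p under 0.05. With the muscle score as a covariate the values were 1.32 for Ebi3, -0.0074 for Il6st, -0.12 for Jak1, -0.27 for Tyk2, -0.21 for Stat3, 0.0058 for Gbp2 and 0.0027 for Des. After the GC and length correction they were -0.092 for Jak1, -0.054 for Tyk2 and -0.13 for Stat3. Leaving out 1 tumor at a time gave -1.79 to 0.52 for Ebi3 (above 0 without M8 and, at 0.011, without M10) and -0.070 to 0.092 for Jak1 (below 0 without M8 and, at -0.011, without M12). It gave -0.24 to 0.098 for Jak2 (above 0 without M4 and, at 0.0012, without M10), -0.11 to 0.31 for Tyk2 (below 0 without M8) and -0.085 to 0.32 for Stat3 (below 0 without M6 and, at -0.080, without M8). It gave -0.87 to 0.38 for Prdm1 and -2.17 to 1.23 for Il21 (both above 0 without M4), and -1.03 to 0.25 for Il12rb1 (above 0 without M4 and, at 0.23, without M12). Of 1058 values for named and list genes, 1005 kept direction and side of the threshold, 23 turned and 30 came past it. Of 204 values for the 17 differences from cabo, 98 kept their call and 106 lost it. Of 408 list medians, 355 moved by less than 1 SD.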
